A study of Mus musculus with 8 samples.

Results

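The 5 light chains of sarcomeric myosin, Myl1, Myl2, Myl3, Myl4 and Mylpf, were followed in cultured mouse primary myoblasts. Such cells descend from the stem cells (satellite cells) of muscle and can divide. Whether the cells on these arrays were still dividing was not measured. Myl1 and Myog, a factor of terminal differentiation, averaged 11.76 and 11.34 in log2 intensity, against array medians of 4.39 to 4.41. The light chains were chosen by name, and each was measured by 1 probe set of an Affymetrix MoGene 1.0 ST array. They are 5 of the 19938 genes measured. Of the 8 arrays, 4 are labelled WT and 4 Runx1f/f, on a C57bl/6 background, and each label has replicates 1 to 4. Cells were isolated from the gastrocnemius of animals 2 to 3 weeks old and grown on Matrigel. The labels also call the second group knockout, and no Cre that would delete the floxed Runx1 gene is named in the sources used here. Nor do they say whether replicates came from separate animals or pools. The study asked which genes the transcription factor Runx1 controls as muscle starts to regenerate.

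Sarcomeric myosin is the motor of the thick filament. Each of its heavy chains carries at its neck an essential and a regulatory light chain, both of the EF-hand family, which stiffen the lever arm and tune contraction. Myl1 encodes the essential chain of fast skeletal muscle, Myl4 that of embryonic muscle and the atrium, and Myl3 that of slow muscle and the ventricle. Mylpf encodes the regulatory chain of fast skeletal muscle and Myl2 that of slow muscle and the ventricle. Fast and embryonic chains come on when myoblasts leave the cell cycle and begin to fuse.

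Promoter sequences are shown for members that differed between arrays (Myl1 and Mylpf) and for members that hardly differed (Myl3 and Myl2). They are the 250 bases before a start site, from RefSeq on GRCm38.p6, written 5′ to 3′ on the strand of the gene. Other start sites of these genes are not shown. Capitals mark the E-box CANNTG, a palindrome to which MyoD and myogenin bind.
Myl1, chr1:66945057-66945306, - strand: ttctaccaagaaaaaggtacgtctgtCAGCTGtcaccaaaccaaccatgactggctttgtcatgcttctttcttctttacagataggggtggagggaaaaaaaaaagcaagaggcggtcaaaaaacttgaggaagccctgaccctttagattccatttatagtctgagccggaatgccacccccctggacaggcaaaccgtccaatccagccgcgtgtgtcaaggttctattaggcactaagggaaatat
Mylpf, chr7:127211358-127211607, + strand: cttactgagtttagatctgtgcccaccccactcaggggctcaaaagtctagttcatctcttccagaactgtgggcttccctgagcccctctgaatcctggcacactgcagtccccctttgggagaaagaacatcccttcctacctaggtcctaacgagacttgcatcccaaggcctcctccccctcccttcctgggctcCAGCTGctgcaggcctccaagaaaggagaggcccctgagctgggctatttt
Myl3, chr9:110763428-110763677, + strand: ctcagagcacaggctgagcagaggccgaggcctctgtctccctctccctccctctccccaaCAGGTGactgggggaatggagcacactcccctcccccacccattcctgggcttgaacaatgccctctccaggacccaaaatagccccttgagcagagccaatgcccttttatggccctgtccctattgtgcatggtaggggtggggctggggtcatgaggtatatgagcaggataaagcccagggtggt
Myl2, chr5:122092474-122092723, + strand: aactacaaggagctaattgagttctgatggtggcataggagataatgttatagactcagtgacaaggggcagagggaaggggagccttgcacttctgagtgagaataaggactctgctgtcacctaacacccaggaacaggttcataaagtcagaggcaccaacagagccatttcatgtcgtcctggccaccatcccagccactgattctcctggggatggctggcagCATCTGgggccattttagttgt

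An E-box was found in all 4 of these windows, once in each. The Myl1 and Mylpf windows hold the same letters, CAGCTG, which begin 224 and 51 bases before the start. The Myl3 window holds CAGGTG and the Myl2 window CATCTG. A second Myl2 start had 2 E-boxes, and the window of Myl4, on chromosome 11, had 0. Thus the match does not sort the members by how far they differed between arrays, and 66.2% of the 32851 mouse promoter windows of this length hold an E-box. The Runx letters TGTGGT or TGCGGT, the AP-1 letters TGANTCA and the Mef2 motif were sought on both strands. They had 0 matches in the member windows, against 18.6%, 6.75% and 2.92% of all windows. No match says only that these letters are not in these 250 bases.

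The deposited columns limit what the labels can show. In all 35399 rows the WT columns, the first pair of Runx1f/f columns (1 and 2) and the second pair (3 and 4) have the same mean to within 7.5e-05. Runx1f/f 1 and 2 therefore lie equally far on either side of one value in every gene, and so do Runx1f/f 3 and 4, and the 8 arrays are not independent. With limma, 0 of 19938 genes (0%) passed an adjusted p of 0.05 between the labels, and 0 had an unadjusted p under 0.05, a count that the equal means fix in advance. What the arrays do show is a difference that crosses the labels as deposited: the arrays labelled replicates 2 and 3 stand apart from those labelled replicates 1 and 4, in WT and in Runx1f/f. This division was chosen after the arrays had been seen to part this way, so differences along it are given as descriptions, with no test. Runx1 itself, the targeted gene, parted along the division, at 10.03 ± 0.16 (SD, n = 4) in replicates 2 and 3 and 9.30 ± 0.13 (SD, n = 4) in replicates 1 and 4. With equal label means, neither Runx1 nor any other gene could follow the label as deposited.

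Whether each column holds the sample it names is therefore in doubt. The columns with equal means come as sets of 4, 2 and 2. The source numbers in the labels, of unstated meaning, also fall into runs of 4, 2 and 2 samples (139 to 142, 160 to 161, and 181 and 189), but as labelled the set of WT columns draws on all 3 runs. If the columns stood instead in ascending order of source number, each set would be 1 run. In that order the 4 arrays called replicates 2 and 3 here would be the 4 Runx1f/f samples, the other 4 would be the WT samples, and the division would be the genotype, with Runx1 higher in Runx1f/f. The sources used here do not settle which order holds. Groups are kept as labelled, WT 2 or Runx1f/f 1 below means the array so labelled, and no difference along the division is assigned to a genotype.

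Of the 5 light chains, 3 were higher on every array of replicates 2 and 3 than on any of the other 4, and 2 hardly differed. Over all 19938 genes, 9.87% were above in this way and 10.5% below. From the difference of mean log2 intensities, Myl4 was 1.64 times and Mylpf 1.54 times as high, and Myl1 just under 1.5 times. Myl2 and Myl3 differed by 1.03-fold and 1.02-fold, and their arrays overlapped. Both averaged below the median intensity, where RMA compresses differences. In bulk RNA such as this, fewer cells of a type and less RNA per cell cannot be told apart.

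**Figure D1:**
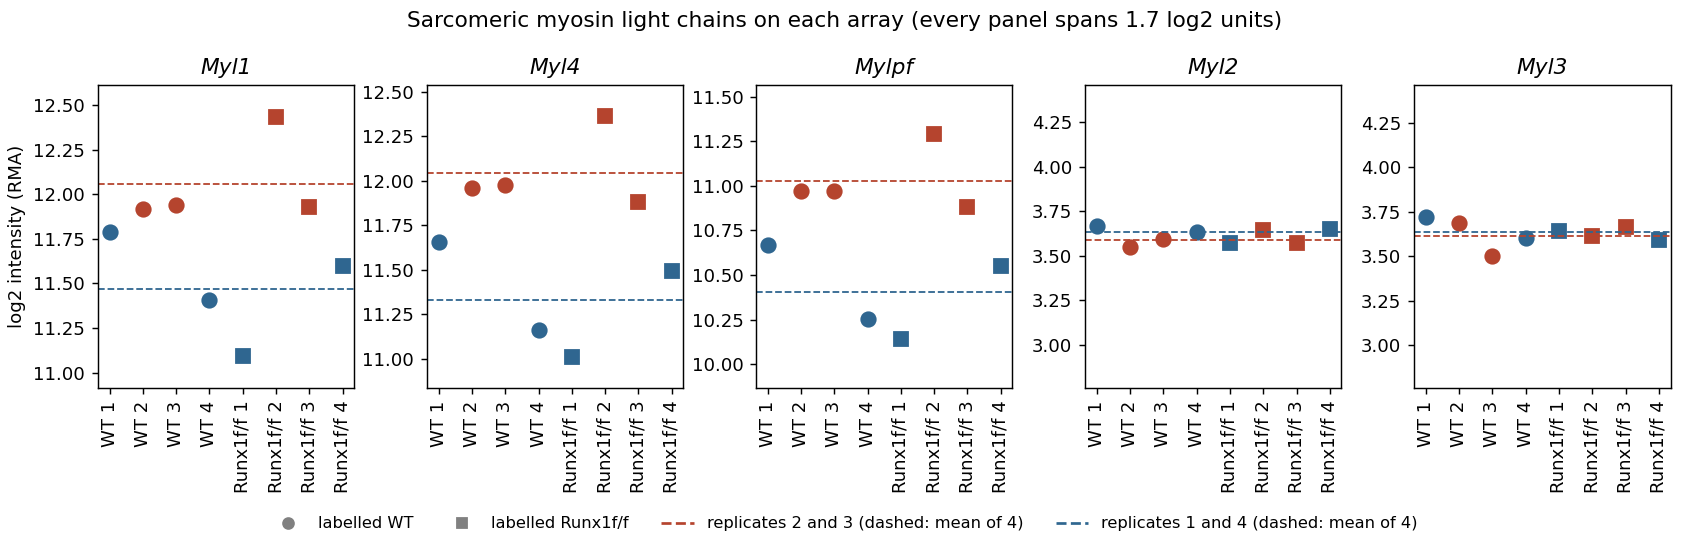
Log2 intensity of each light chain on the 8 arrays, with circles for arrays labelled WT, squares for arrays labelled Runx1f/f, red for replicates 2 and 3, blue for replicates 1 and 4, and dashed lines at the means of 4 arrays. Red lies above blue without overlap for Myl1, Myl4 and Mylpf, and both colours overlap for Myl2 and Myl3.

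Among the essential chains, Myl1 read 11.79, 11.92, 11.94 and 11.41 on WT 1 to 4 and 11.09, 12.44, 11.93 and 11.60 on Runx1f/f 1 to 4. Both the lowest and the highest array carry the Runx1f/f label, and between them Myl1 differed 2.54-fold. The 4 arrays of replicates 2 and 3 were above all 4 of replicates 1 and 4, but the closest pair, WT 2 over WT 1, was only 0.13 apart, less than the pooled SD of 0.28 within the sides. The means were 12.06 ± 0.25 (SD, n = 4) and 11.47 ± 0.30 (SD, n = 4). Their difference of 0.5846 lay just short of the 1.5-fold mark used here, which is 0.5850 on the log2 scale.

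Myl4, the embryonic essential chain, read 11.66, 11.96, 11.98 and 11.16 on WT 1 to 4. On Runx1f/f 1 to 4 it read 11.01, 12.36, 11.88 and 11.50. The order of the arrays was nearly that of Myl1, with Runx1f/f 1 lowest and Runx1f/f 2 highest, and the 4 arrays of replicates 2 and 3 again lay above the other 4. The means were 12.04 ± 0.22 (SD, n = 4) and 11.33 ± 0.30 (SD, n = 4), a difference of 0.71, which was the widest of the 5 members.

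Myl3, the slow and ventricular essential chain, did not follow them. It read 3.72, 3.69, 3.50 and 3.60 on WT 1 to 4 and 3.64, 3.62, 3.66 and 3.59 on Runx1f/f 1 to 4. All 8 values lay within 0.22, the highest on WT 1 and the lowest on WT 3, so the sides overlapped. The means of 3.62 ± 0.08 (SD, n = 4) and 3.64 ± 0.06 (SD, n = 4) differed by -0.02, inside the pooled SD of 0.07.

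Of the regulatory chains, Mylpf read 10.67, 10.97, 10.97 and 10.25 on WT 1 to 4. On Runx1f/f 1 to 4 it read 10.14, 11.29, 10.88 and 10.55. The order of the 8 arrays was the same as for Myl4, and replicates 2 and 3 lay above replicates 1 and 4 by at least 0.21. The means were 11.03 ± 0.18 (SD, n = 4) and 10.40 ± 0.25 (SD, n = 4), a difference of 0.62.

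Myl2, the regulatory chain of slow muscle and the ventricle, read 3.67, 3.55, 3.59 and 3.63 on WT 1 to 4 and 3.57, 3.65, 3.57 and 3.65 on Runx1f/f 1 to 4. It had the narrowest span of the members, 0.12, with WT 1 highest and WT 2 lowest. The means of 3.59 ± 0.04 (SD, n = 4) and 3.63 ± 0.04 (SD, n = 4) differed by -0.04, and the sides overlapped. Myl2 and Myl3 both averaged below the median intensity of the arrays, 4.39 to 4.41, where RMA is known to compress differences. Detection values were not used here, so these levels do not say whether either gene was expressed.

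Counted together, 2 of 5 members were higher past the 1.5-fold mark and 0 lower, where over all 19938 genes 2.32% were higher and 0.838% lower. The 4 arrays of replicates 2 and 3 were all above the other 4 in 3 of 5 members and all below in 0, against 9.87% and 10.5% of all genes. The median difference of the members was 0.58, the value of Myl1, beside -0.01 over all genes. The members' own count depends on single arrays: without WT 4, Runx1f/f 1 or Runx1f/f 2 it was 1, namely Myl4. It was 3 without WT 1, WT 2, WT 3, Runx1f/f 3 or Runx1f/f 4. Without both Runx1f/f 1 and 2, a setting added once the values had been seen, it was 0, with differences of 0.33 for Myl1, 0.50 for Myl4 and 0.45 for Mylpf.

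As labelled, the difference was present under each label and wider on the arrays labelled Runx1f/f. Within WT, replicates 2 and 3 exceeded 1 and 4 by 0.33 for Myl1, 0.56 for Myl4 and 0.51 for Mylpf, all short of the mark. Within Runx1f/f the same differences were 0.84, 0.87 and 0.74, all past it. Whether the labels differ in this was not tested. As labelled, only the run of source numbers 139 to 142 holds both sides, whereas in ascending column order all 3 runs would. Within that run as labelled the differences, with 2 arrays a side, were 0.74 for Myl1, 0.82 for Myl4 and 0.72 for Mylpf, while Myl2 and Myl3 differed by -0.02 and -0.03.

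Between the labels the members had equal means, as every gene does. Myl1 was at 11.76 ± 0.25 (SD, n = 4) in WT and 11.76 ± 0.57 (SD, n = 4) in Runx1f/f arrays, Myl4 at 11.69 ± 0.38 and 11.69 ± 0.57, and Mylpf at 10.72 ± 0.34 and 10.72 ± 0.49. Myl2 was at 3.61 ± 0.05 and 3.61 ± 0.04, and Myl3 at 3.63 ± 0.10 and 3.63 ± 0.03. These equalities do not measure an effect of Runx1. The Runx1f/f arrays mirror each other in pairs, so their SDs are not spreads over 4 independent arrays.

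Ordered from low to high, Myl4 and Mylpf shared one order: Runx1f/f 1, WT 4, Runx1f/f 4, WT 1, Runx1f/f 3, WT 2, WT 3 and Runx1f/f 2. Myl1 differed from it only in that Runx1f/f 3 fell between WT 2 and WT 3. Many neighbours did not differ beyond the pooled SD within the sides. For Myl4 and Mylpf the gaps that did were those between WT 4 and Runx1f/f 4 (0.34 and 0.29) and between WT 3 and Runx1f/f 2 (0.39 and 0.32). For Myl1 they were Runx1f/f 1 below WT 4 (0.32) and WT 3 below Runx1f/f 2 (0.49). WT 1, the top of the lower side, and the bottom array of the upper side were within the pooled SD of each other for all 3 genes.

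The 3 members were not quite interchangeable within an array. Myl4 and Mylpf tracked each other most closely, with a root mean square difference of 0.058 between their mean-centred log2 values over the 8 arrays, against 0.080 for Myl1 and Mylpf and 0.086 for Myl1 and Myl4. The log2 ratio of Myl1 to Myl4 stood 0.17 above its mean on WT 4 and 0.12 below it on WT 2. On average this ratio was lower by 0.13 in replicates 2 and 3, that is, Myl4 differed more than Myl1. This came mainly from the WT arrays, where Myl1 and Myl4 differed by 0.33 and 0.56 between the sides. On the Runx1f/f arrays they differed by 0.84 and 0.87.

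By the same measure, the genes most like each of the 3 members were sought among all genes other than members, leaving out predicted genes and clone names. For Myl1 they were Tnni1, slow skeletal troponin I (0.041), Cacna1s, the voltage sensor of excitation-contraction coupling (0.064), Apobec2, a muscle-enriched deaminase relative (0.078), Tnnc1, slow and cardiac troponin C (0.081), and Lmod3, which nucleates thin filaments (0.081). A gene that did not vary at all would stand at 0.38 from Myl1. Tnni1 read 10.14, 10.27, 10.29 and 9.71 on WT 1 to 4 and 9.48, 10.73, 10.22 and 9.99 on Runx1f/f 1 to 4, which is the array order of Myl4 and Mylpf. Mylpf was the fourth nearest of all genes to Myl1 and Myl4 the seventh.

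For Myl4 the nearest gene of all was Mylpf, followed by Abcc9, a regulatory subunit of potassium channels (0.063), Dclk1, a microtubule-associated kinase (0.064), Cacna1s (0.068), Mybph, myosin binding protein H (0.076), and Tnnc1 (0.078). For Mylpf they were Abcc9 (0.045), Lmod3 (0.063), Tnni1 (0.066), Dclk1 (0.068) and Mybph (0.077). Abcc9 read 5.79, 6.19, 6.14 and 5.31 on WT 1 to 4 and 5.30, 6.42, 6.04 and 5.68 on Runx1f/f 1 to 4, low where Mylpf was low and high where it was high. Myl2 and Myl3 lay far off, at ranks between 6864 and 9585 from the other members. Likeness over 8 arrays that are not independent describes these arrays only.

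**Figure D2:**
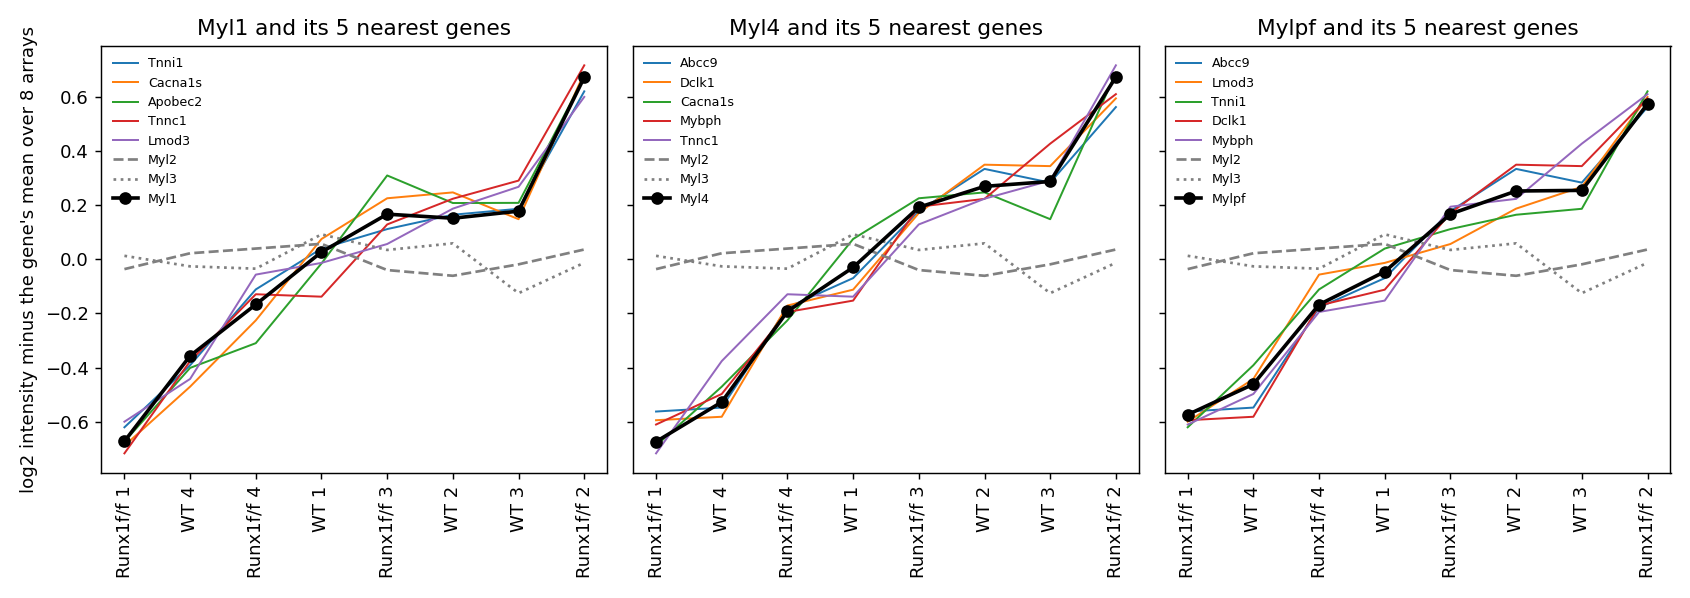
Log2 intensity minus the mean over 8 arrays for Myl1, Myl4 and Mylpf (black), their 5 nearest genes (coloured) and Myl2 and Myl3 (grey), with arrays ordered by the level of Mylpf. Coloured and black lines climb together from Runx1f/f 1 to Runx1f/f 2, while the grey lines for Myl2 and Myl3 have no such course.

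The partners of the light chains were then described from gene lists. For these lists and the markers below, the shares over all 19938 genes were 2.32% higher past the mark and 0.838% lower. Without overlap, 9.87% of all genes were above in replicates 2 and 3 and 10.5% below. Among the light chains of smooth muscle, non-muscle and atrial myosin, 1 of 7 was higher past the mark and 1 lower, with a median difference of -0.04. Myl6b, an essential chain found in slow muscle and non-muscle cells, read 6.49, 6.83, 7.07 and 6.19 on WT 1 to 4 and 5.99, 7.31, 6.76 and 6.53 on Runx1f/f 1 to 4, higher by 0.69 in replicates 2 and 3 with no overlap. Myl9, the regulatory chain of smooth muscle, went the other way. It read 8.96, 7.63, 7.90 and 9.30 on WT 1 to 4 and 8.996, 7.90, 8.03 and 8.87 on Runx1f/f 1 to 4, a difference of -1.17. The other 5, among them the widely expressed Myl6 and Myl12a, overlapped between the sides, with differences of -0.19 and -0.05 for these 2.

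Sarcomeric heavy chains, which bind the light chains, gave 3 of 9 higher past the mark and 0 lower, with a median difference of 0.51. Myh8, the perinatal heavy chain, was at 10.90 ± 0.27 (SD, n = 4) in replicates 2 and 3 and 9.71 ± 0.30 (SD, n = 4) in replicates 1 and 4, a difference of 1.19. Myh7, the slow and cardiac heavy chain, differed by 0.97 and Myh2, of fast oxidative fibres, by 0.63, and each separated the sides. Myh3, the embryonic heavy chain, differed by 0.51 without overlap and is named here after its values were seen. Of the 9 heavy chains, 4 were above without overlap and 5 overlapped. Those that overlapped include the fast chains Myh1 (0.33) and Myh4 (0.52), also named after their values were seen. Slow-type Myh7 thus differed between the sides, as did the light chain Myl6b (0.69), found in slow muscle and non-muscle cells. The slow-type light chains Myl2 and Myl3 did not. Both averaged below the median intensity, where RMA compresses differences, so they cannot be set against Myh7. Heavy chain genes are closely related in sequence, and cross-hybridization of their probes was not tested.

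Of the kinases and phosphatase subunits that set light chain phosphorylation, 2 of 8 were higher past the mark and 0 lower, with a median difference of 0.09. Mylk4, a light chain kinase family member, differed by 0.97, and Ppp1r12b, the striated muscle targeting subunit of myosin phosphatase, by 0.87. Mylk2, the light chain kinase of skeletal muscle, had values of 6.79 ± 0.22 (SD, n = 4) and 6.85 ± 0.24 (SD, n = 4), with overlap. In the list of myosin folding and thick filament partners, 5 of 11 were higher and 0 lower, with a median difference of 0.40. Mybpc1, slow myosin binding protein C, differed by 1.54, Unc45b, the muscle myosin chaperone, by 1.11, Myom2, an M-band protein, by 1.01 and Mybph by 0.73. The other one past the mark, Smyd1, a muscle methyltransferase needed for sarcomere assembly, differed by 0.62 and is named after its values were seen.

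**Figure D3:**
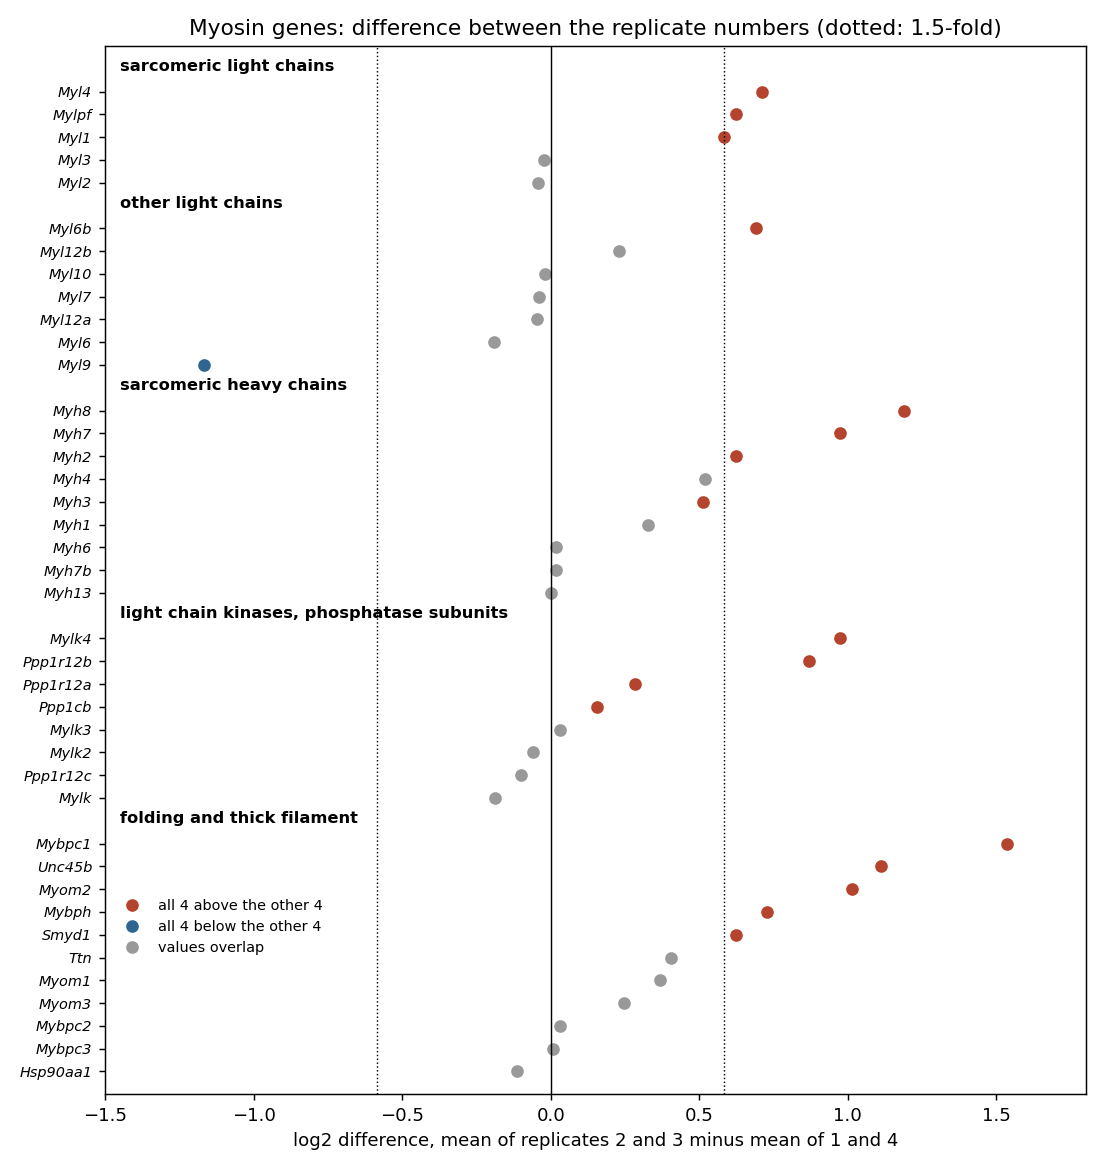
Difference of mean log2 intensity, replicates 2 and 3 minus 1 and 4, for 40 genes in 5 lists of myosin chains and their partners. Dotted lines stand at 1.5-fold, and colour shows whether the 4 and 4 values overlap. Myl1, Myl4 and Mylpf lie near 0.6 to 0.7, Mybpc1 is farthest right at 1.54 and Myl9 farthest left at -1.17.

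Markers were read beside these results. All 7 myoblast markers averaged above the median intensity, from 7.07 for Pax7 to 11.35 for Myod1. They did not move as one, with a median difference of -0.10. In replicates 2 and 3, 2 of 7 were above without overlap (9.87% of all genes), 2 below (10.5%) and 3 overlapped. Myf5, which marks undifferentiated myoblasts, was the 1 past the mark (difference -0.89). The differences of the others, named after their values were seen, were -0.26 for Myod1, 0.25 for Cdh15, 0.18 for Des and 0.08 for Pax7, with Ncam1 and Itga7 at -0.10 and -0.11. Of 6 cardiomyocyte markers, 6 averaged below the median intensity and 0 passed the mark, as for 5 of 5 endothelial markers, 5 of 6 leukocyte markers and the 2 measured Schwann cell markers. Their summed levels, as log2 of summed intensities, were 6.30 to 6.35 in replicates 2 and 3 and 6.28 to 6.38 in replicates 1 and 4 for cardiomyocytes. The corresponding ranges were 6.28 to 6.36 and 6.22 to 6.31 for leukocytes, 5.81 to 5.84 and 5.87 to 5.89 for endothelium, and 4.41 to 4.68 and 4.44 to 4.57 for Schwann cells. Fibroblast markers summed to 9.32 to 10.08 and 9.69 to 10.46, with 4 of 6 below the median intensity and 1 of 6 (Pdgfrb, difference 0.59) past the mark. Smooth muscle markers summed to 11.63 to 12.00 and 11.58 to 11.98, with 0 of 5 past the mark and 2 below the median intensity. Acta2 averaged 11.70, Smtn 6.95, Tagln 6.33, Cnn1 3.57 and Myh11 3.47. Tagln had the widest difference, -0.45, with overlap, and Smtn differed by 0.33 without overlap. The part of these markers in the light chain differences was not tested.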

How the data were processed

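RNA of 8 cultures was hybridized to Affymetrix MoGene 1.0 ST arrays, from 200 ng of total RNA each per the labels' protocols. The deposited table holds log2 intensities, made with RMA and Partek per the submitters' processing notes, which give no versions. RMA corrects background, equalizes the arrays' distributions and summarizes probe sets. The sources used here name no genome build for the probe sets. Array medians were 4.39 to 4.41 and correlations between arrays 0.988 to 0.997. Precision is limited by how few arrays there are.

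Symbols came from the platform annotation provided: 21789 of 23410 annotated rows had 1 symbol, and the row with the highest mean stood for each of 19938 genes. Labels were compared in R 4.3.3 by limma 3.58.1 (two-sided, Benjamini-Hochberg, threshold 0.05), tested on simulated arrays. The simulated arrays were independent and their label means free to differ, unlike the deposited columns. That test therefore does not show that limma could find label differences here. Replicates 2 and 3 were set against 1 and 4 by differences of means, with 1.5-fold as the mark. P-values set a difference against the spread between these samples, which may be technical. For the labels as deposited the equal means fix them in advance, so they measure no effect of Runx1. Deviations from label means correlated by 0.39, 0.46, 0.60 and 0.57 for replicate numbers 1 to 4, but WT 1 was closest to Runx1f/f 4 and WT 4 to Runx1f/f 1. The numbers entered an alternative fit as a block, although Runx1f/f 1 and 2 mirror each other (correlation -1).

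Members, lists and the division were chosen with earlier results of these data known. By rule, named list genes are Runx1 and up to 4 past the mark by size, or else the largest difference. For markers with none past the mark these included Cd68 (0.13), Pecam1 (-0.19), Nppa (0.08) and Sox10 (0.02). Other genes, among them Myl6, Myl12a, Mylk2, Mef2a and the smooth muscle markers except Tagln, were named outside this rule, with their values seen. Summaries under the alternatives are in the closing section.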

Additional observations from a re-analysis of the deposited data

How the results depend on the processing

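Under the other scalings, arrays and row choices, and with each array left out, Myl1, Myl4 and Mylpf were higher in replicates 2 and 3 each time and Myl2 was lower. Not all of these settings are separate checks. Each member has 1 row, so the choice of rows could not change it. Leaving out Runx1f/f 1 or Runx1f/f 2 gave the same differences to rounding, as did Runx1f/f 3 or Runx1f/f 4, because these arrays mirror each other. Myl3 changed sign in 3 of 15 settings, within its spread. The differences ranged from 0.33 to 0.84 for Myl1, 0.50 to 0.87 for Myl4 and 0.45 to 0.74 for Mylpf.

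The number of members higher past the mark, 2 in the full set, was 0 on WT arrays alone, 0 at a 2-fold mark and 0 without both Runx1f/f 1 and 2. It was 1 to 3 with each array left out in turn. The count of 1 came without WT 4, Runx1f/f 1 or Runx1f/f 2, and the count was 3 without any other single array. Over all genes, 462 were higher and 167 lower. These became 1266 and 1023 at 1.2-fold and 163 and 36 at 2-fold, by construction, and on WT arrays alone 377 were lower; the cause of that was not tested.

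With the replicate block, limma called 0 genes between labels and the Myl1 difference stayed at 2.5e-05. The block changed no other call. No gene was called in any of the 15 alternative fits of the labels, but fits of all 8 arrays on the deposited values keep the equal means, and leaving out 1 array gives only that array's deviation. Quantile normalization applied again and centring on array medians moved the Myl1 difference to 0.015 and -0.0044, and the smallest unadjusted p over all genes to 0.575 and 0.888. Unadjusted p-values under 0.05 numbered 0 to 27 when 1 array was omitted. Detection values were not used, so the lower limit of signal for Myl2 and Myl3 is not known.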

Other observations

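Muscle transcription factors parted along the same division in both directions. Of 8, 3 were higher past the 1.5-fold mark in replicates 2 and 3 (Mef2c, Myog and Runx1) and 1 was lower (Myf5). Over all genes 2.32% were higher and 0.838% lower. Without overlap, 3 of the 8 were above and 3 below, against 9.87% and 10.5% of all genes. The median difference of the 8 was -0.08. Mef2c, which activates structural muscle genes, read 9.10, 9.74, 9.96 and 8.64 on WT 1 to 4 and 8.26, 10.46, 9.86 and 8.86 on Runx1f/f 1 to 4. It was lowest on Runx1f/f 1 and highest on Runx1f/f 2, as were Myl1, Myl4 and Mylpf, and the sides differed by 1.29. Runx1f/f 1 and 2 mirror each other in every gene, so the likeness at both ends is not a pair of separate matches. Myog, the factor of terminal differentiation, read 11.05, 11.70, 11.76 and 10.84 on WT 1 to 4 and 10.74, 11.94, 11.48 and 11.20 on Runx1f/f 1 to 4, a difference of 0.76. Myf5, of proliferating myoblasts, ran opposite, at 8.51, 7.66, 7.54 and 8.71 on WT 1 to 4 and 8.67, 7.54, 7.90 and 8.31 on Runx1f/f 1 to 4. Myod1 and Mef2a were lower in replicates 2 and 3 without overlap, by differences of -0.26 and -0.23, short of the mark. No relation between these factors and the light chains was tested.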
